A study of Mus musculus with 2 samples.

Results

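The miR-302 cluster, which also holds Mir367, and the miR-290 cluster are the microRNA clusters best known from pluripotent cells of the early mouse embryo, and here they were measured in limb at 12.5 days of embryonic development. The genes were taken by name after gene identifiers had been matched to symbols: Mir302a, Mir302b, Mir302c, Mir302d and Mir367 from the cluster on chromosome 3, and Mir292, Mir294 and Mir295 from the cluster on chromosome 7. These 8 genes stand among 1973 microRNA genes in the count tables. The miR-290 cluster has a further 4 gene rows (Mir290a, Mir291a, Mir291b and Mir293), which are not in the list of 8 and are given separately. The series has 1 group of 2 libraries, both of limb tissue of healthy B6NCrl embryos of mixed sex, with no treatment or engineered allele named. Replicate 1 came from a pool of 88 embryos and replicate 2 from a pool of 68, and RNA shorter than 30 nt was sequenced. A single group allows no contrast between conditions, and levels, the order of levels and the spread between the 2 pools are described.

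A microRNA is cut from a hairpin in a longer primary transcript, and one arm of the hairpin, 5' or 3', guides the silencing of messenger RNAs that match its seed, bases 2 to 8. Neighbouring hairpins of a cluster are usually made from one primary transcript. In the early embryo and in embryonic stem cells the miR-290 cluster acts first, and the miR-302 cluster is linked to the primed, post-implantation state. Both promote cell cycle progression through related seeds, and both are known to decline as tissues differentiate. The miR-290 cluster is also known from germ cells and the placenta.

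The arms are shown because the members differ in level while sharing seeds, and because near-identical arms limit how reads can be assigned. They were taken from RefSeq (build GRCm38.p6), 5' to 3', with the seed in capitals. All 8 members were matched, with 14 mature arms. The 3' arms of Mir302a and Mir292 are named only.

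miR-302b-3p: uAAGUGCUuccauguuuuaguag
miR-302d-3p: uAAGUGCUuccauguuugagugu
miR-294-3p: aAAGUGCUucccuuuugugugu
miR-295-3p: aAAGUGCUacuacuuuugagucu
miR-302c-3p: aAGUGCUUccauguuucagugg
miR-367-3p: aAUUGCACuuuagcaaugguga

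The 3' arms of Mir302b, Mir302d, Mir294 and Mir295 carry 1 seed, AAGUGCU, across both clusters. The Mir302a hairpin, printed further on, holds the same letters once, from its base 45. The 3' arm of Mir302c is recorded as starting 1 base later, so its bases 2 to 8 read AGUGCUU, although it shares a run of 16 bases with the arms of Mir302b and Mir302d. The 3' arm of Mir367 has an unrelated seed, AUUGCAC, which is that of the miR-25 and miR-92 family. Bases 2 to 8 of the 5' arms start with CUU in the Mir302 genes, with CUC in Mir292, Mir294 and Mir295, and differ from both in Mir367.

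miR-302b-5p: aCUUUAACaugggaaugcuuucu
miR-302c-5p: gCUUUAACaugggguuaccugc
miR-302d-5p: aCUUUAACauggaggcacuugcu
miR-302a-5p: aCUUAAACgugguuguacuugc
miR-367-5p: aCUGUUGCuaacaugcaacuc
miR-292a-5p: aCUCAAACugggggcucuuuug
miR-294-5p: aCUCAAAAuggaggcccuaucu
miR-295-5p: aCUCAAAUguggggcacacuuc

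The 2 hairpins of Mir302a and Mir302b hold the longest stretch that any member shares with another microRNA gene, 20 nt, in capitals here.

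Mir302a hairpin: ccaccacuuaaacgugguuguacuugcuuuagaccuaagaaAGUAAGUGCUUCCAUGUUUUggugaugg
Mir302b hairpin: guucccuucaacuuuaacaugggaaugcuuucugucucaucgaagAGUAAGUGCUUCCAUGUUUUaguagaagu

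The shared stretch covers bases 42 to 61 of the Mir302a hairpin and 46 to 65 of the Mir302b hairpin, and holds the start of their 3' arms. Reads that lie within it cannot be assigned to either gene, and the deposited tables set apart reads that mapped to several places. The levels of Mir302a and Mir302b are therefore uncertain. Between the 3' arms of Mir302b and Mir302d, counted from base 1 at the 5' end and with the Mir302b base first, the differences are U18G, A22G and G23U. Mir302d shares 17 nt and Mir302c 16 nt with another hairpin of the cluster, Mir292 and Mir294 share at most 13 nt, Mir367 11 nt and Mir295 10 nt with any other microRNA hairpin.

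The 5 hairpins of the miR-302 cluster lie within 580 nt on the plus strand of chromosome 3 (mm10), in the order Mir302b (127545228 to 127545301), Mir302c (127545363 to 127545430), Mir302a (127545496 to 127545564), Mir302d (127545624 to 127545689) and Mir367 (127545733 to 127545807). All 5 lie in an intron of Larp7, a gene for a protein that binds small nuclear RNA, and on its opposite strand. The miR-290 cluster spans 2216 nt on the plus strand of chromosome 7, with Mir292 at 3219189 to 3219270, Mir294 at 3220641 to 3220724 and Mir295 at 3220773 to 3220841. These 3 hairpins lie opposite to a UTR of Nlrp12, a gene of innate immunity on the minus strand, and Mir292 also overlaps Mir292b on that strand. No read was counted on the strand opposite to any of the 8 members (0 counts in both libraries).

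Levels are counts on the gene's own strand per 1000000 counts on microRNA genes (CPM), and the totals were 4525636 counts in replicate 1 and 3604284 in replicate 2. One count was worth 0.221 CPM in replicate 1 and 0.277 in replicate 2, and a count of 0 allowed up to 3 counts, or 0.663 and 0.832 CPM. Counts cover whole hairpins, and the arms were not measured apart. Since a read stands for 1 mature microRNA, CPM was not divided by length, and the 8 hairpins are of 66 to 84 nt. Intervals are 95% exact intervals of counting error alone, since PCR copies are not independent molecules, and the spread between the 2 pools is given as SD (n = 2). In a tissue pool, few cells with much of a microRNA and many cells with little cannot be told apart. The 6 limb markers checked, among them Mir196b of the HoxA cluster (86831 ± 9376 CPM) and Mir214 of the mesenchyme (51056 ± 7523 CPM), were all detected in both libraries.

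The miR-302 genes were present at low to moderate levels in the limb, and Mir367 was nearly absent beside them. Mir302a, the highest member, had 578 counts in replicate 1 and 433 in replicate 2, which is 127.7 and 120.1 CPM (mean 124 ± 5.4, rank 180 of 1973 genes). Mir302d had 511 and 349 counts, or 113 and 96.8 CPM (mean 105 ± 11, rank 189). Mir302b stood at 86.6 CPM, from 392 counts, and 102 CPM (mean 94.2 ± 10.8, rank 192). These 3 genes lay close together, with Mir302a first in both libraries.

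The order of the other 2 of these genes was not resolved. Mir302d exceeded Mir302b by 1.30 times in replicate 1 (interval 1.14 to 1.49), and in replicate 2 the ratio was 0.951 (0.819 to 1.10). Mir302a exceeded Mir302d by 1.13 times (1.00 to 1.28) in replicate 1 and 1.24 times (1.08 to 1.43) in replicate 2. It exceeded Mir302b by 1.47 times (1.29 to 1.68) and 1.18 times (1.02 to 1.36). All of these ratios hold Mir302a or Mir302b and carry the limit of their shared 20 nt, as does the place of Mir302a as the highest member.

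Mir302c stood apart from its neighbours although it lies between Mir302b and Mir302a. It had 78 and 47 counts, or 17.2 and 13.0 CPM (mean 15.1 ± 3.0, rank 278). Mir302a exceeded it by 7.41 times in replicate 1 (interval 5.84 to 9.51) and by 9.21 times in replicate 2 (6.81 to 12.7). Mir302d, which shares 17 nt or less with any hairpin, exceeded it by 6.55 times (5.15 to 8.42) and 7.43 times (5.46 to 10.3). The gap was thus larger than the spread between the pools for both.

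Mir367, the last hairpin of the cluster and the member with the seed of the miR-92 family, had 2 counts in replicate 1 and 0 in replicate 2. Its level of 0.442 CPM in replicate 1 lay below the limit that a count of 0 allows. In replicate 1 Mir302a exceeded it by 289 times, with a counting interval of 79.6 to 2392. In replicate 2 Mir302a was at least 144-fold higher, against a floor of 3 counts in that library. Mir367 shares at most 11 nt with another microRNA hairpin, so the limit named for Mir302a and Mir302b does not extend to it; sharing with sequence outside microRNA genes was not tested.

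**Figure D1:**
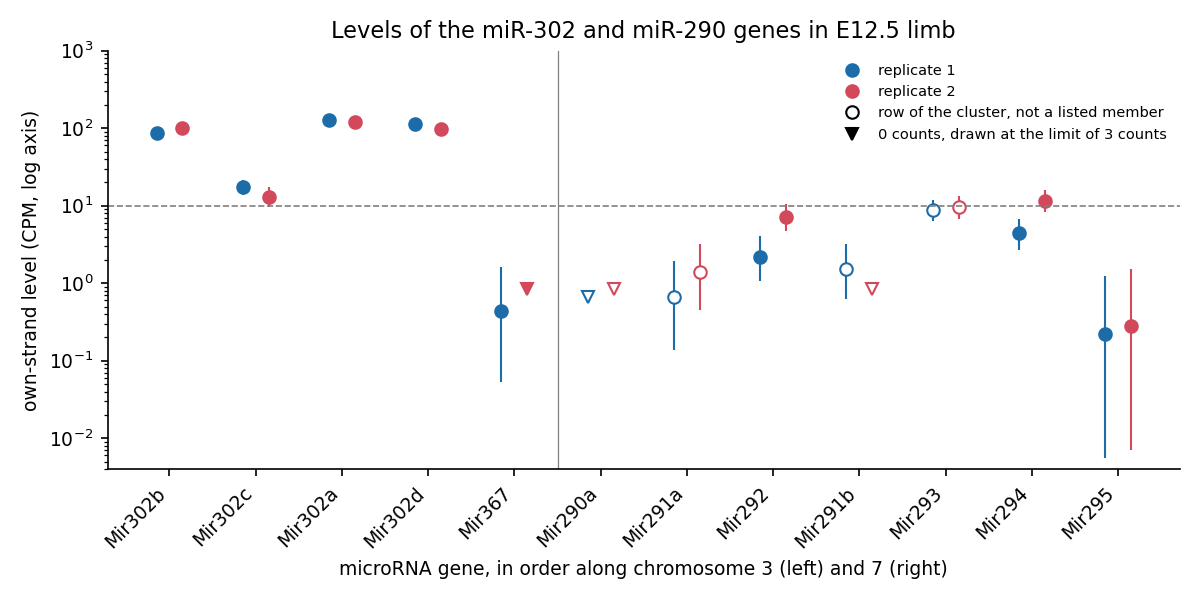
Own-strand level in CPM (log axis) of each gene of the miR-302 cluster on chromosome 3 and the miR-290 cluster on chromosome 7, in genomic order, for replicate 1 (blue) and replicate 2 (red), with 95% counting intervals as bars. Open symbols are rows of the miR-290 cluster outside the 8 members, triangles mark 0 counts drawn at the limit of 3 counts, and the dashed line is the detection threshold of 10 CPM; Mir302a, Mir302b and Mir302d sit near 100 CPM, Mir302c just above the line and Mir367 at the bottom.

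The miR-290 genes lay at the edge of what these libraries could show. Mir294, whose 3' arm has the seed of Mir302b and Mir302d, had 20 counts in replicate 1 and 42 in replicate 2, or 4.42 and 11.7 CPM (mean 8.0 ± 5.1, rank 311). Mir292 had 10 and 26 counts, or 2.21 and 7.21 CPM (mean 4.7 ± 3.5, rank 334). Mir295 had 1 count in each library, or 0.221 and 0.277 CPM, below the limit that a count of 0 allows. Mir294 and Mir292 were both lower in replicate 1 than in replicate 2, and their order was the same in both pools.

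At these depths Mir294 and Mir292 could not be set apart, since in replicate 1 their ratio was 2.0 (interval 0.894 to 4.78), and in replicate 2 it was 1.62 (0.968 to 2.74). Mir295 was lower than both. The intervals of the ratio of Mir294 to Mir295 ran from 3.20 to 829 in replicate 1 and from 7.14 to 1698 in replicate 2, and those of Mir292 to Mir295 from 1.42 to 434 and from 4.27 to 1066. The wide intervals come from the single count of Mir295.

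The 4 further rows of the miR-290 cluster showed a similar range. Mir293 had 40 and 35 counts, or 8.84 and 9.71 CPM (mean 9.27 ± 0.62), the highest mean level of the cluster. It exceeded Mir294 by 2.0 times in replicate 1 (interval 1.14 to 3.61), but in replicate 2 the ratio was 0.833 (0.517 to 1.34). Mir291a had 3 and 5 counts and Mir291b had 7 and 0; these genes share 20 nt with each other, so their levels are uncertain. Mir290a, the first hairpin of the cluster, had 0 counts in both libraries. Mir290b and Mir292b, annotated on the other strand, have no row.

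A gene counted as detected where both libraries reached 10 CPM. This held for 4 of the 8 members, namely Mir302a, Mir302b, Mir302c and Mir302d, against 14.5% of all 1973 genes. All detected members belong to the miR-302 cluster, and 0 of the 7 rows of the miR-290 cluster were detected. Mir294 passed 10 CPM in replicate 2 only. The median level over all genes was 0 CPM, as 1256 genes had 0 counts in both libraries, and over the 286 detected genes it was 268.5 CPM, so each of the 4 detected members stood below the median of detected genes. At 1 CPM in both libraries 6 members passed, with Mir292 and Mir294 added, and at 100 CPM in both only Mir302a did.

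Summed over its 5 genes, the miR-302 cluster reached 345 CPM in replicate 1 (interval 328 to 362) and 332 CPM in replicate 2 (313 to 351), a mean of 338 ± 9.3 CPM or 0.0338% of the counts. The 3 listed genes of the miR-290 cluster summed to 6.85 CPM in replicate 1 (4.65 to 9.72) and 19.1 CPM in replicate 2 (14.9 to 24.2), a mean of 13.0 ± 8.7 CPM. The clusters were apart by more than the spread between the pools in both libraries. The miR-302 sum was higher by 50.4 times in replicate 1 (interval 35.3 to 74.4) and by 17.3 times in replicate 2 (13.6 to 22.4). The size of the gap thus depended on the library, and the 2 intervals did not overlap.

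The choice of genes also moved the ratio. Without Mir302a and Mir302b, which share 20 nt, the other 3 genes of the miR-302 cluster exceeded the listed miR-290 genes by 19.1 times (interval 13.3 to 28.3) in replicate 1 and 5.74 times (4.43 to 7.52) in replicate 2. With all 7 rows of the miR-290 cluster, that cluster summed to 17.9 CPM (14.2 to 22.2) in replicate 1 and 30.2 CPM (24.8 to 36.5) in replicate 2, and the miR-302 sum was higher by 19.3 times (15.4 to 24.4) and 11.0 times (9.01 to 13.5). The 4 unlisted rows, of which Mir293 held most counts, summed to 11.0 CPM in replicate 1 and 11.1 CPM in replicate 2. The difference between the pools in the miR-290 sum therefore sat in the counts of Mir294 and Mir292. Single unlisted rows moved both ways within their near-equal sum. Mir291b (1.55 and 0 CPM) was lower in replicate 2, and Mir291a (0.663 and 1.39 CPM) and Mir293 (8.84 and 9.71 CPM) were higher. No test is given for these sums, as the genes were chosen with results of these data known.

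**Figure D2:**
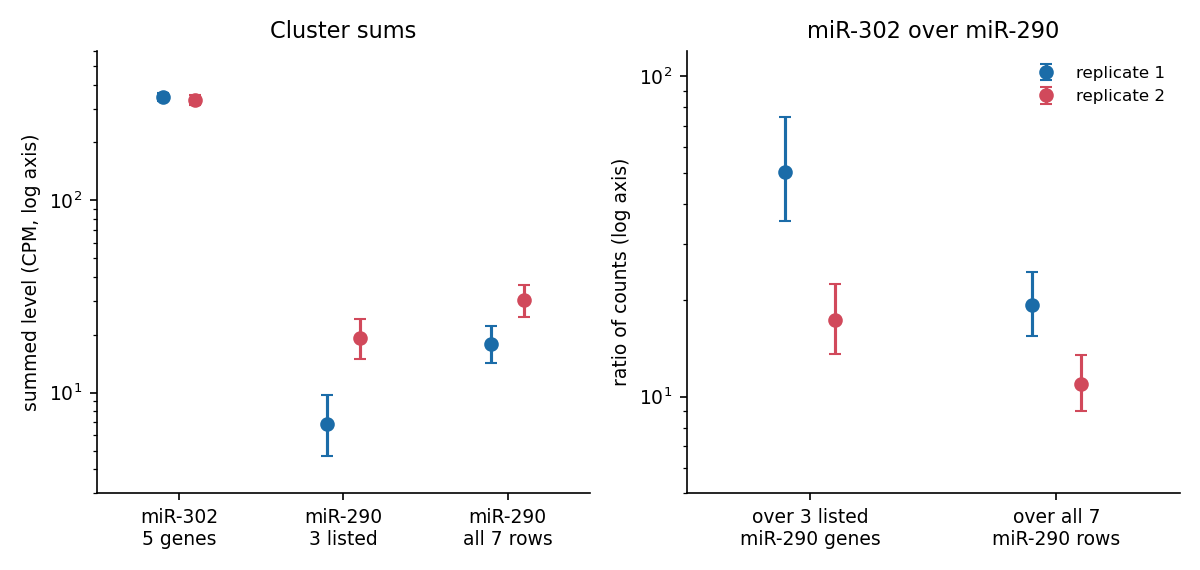
Left, summed level in CPM (log axis) of the 5 miR-302 genes, the 3 listed miR-290 genes and all 7 miR-290 rows in replicate 1 (blue) and replicate 2 (red); right, the ratio of the miR-302 counts to the miR-290 counts (log axis), with 95% exact counting intervals as bars. The miR-302 sums, 345 and 332 CPM, nearly coincide, while the miR-290 sums and both ratios differ between the libraries.

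Within the miR-302 cluster Mir302a made up 37.0% of the cluster's counts in replicate 1 (interval 34.6 to 39.5) and 36.2% in replicate 2 (33.5 to 39.0). Mir302d made up 32.7% (30.4 to 35.1) and 29.2% (26.6 to 31.8), and Mir302b 25.1% (23.0 to 27.3) and 30.7% (28.1 to 33.4). Mir302c held 4.997% (3.97 to 6.20) and 3.93% (2.90 to 5.19), and Mir367 held 0.128% (0.0155 to 0.462) in replicate 1 and 0% in replicate 2, where 0 counts of 1196 allow up to 0.251% (3 counts). The intervals of Mir302b did not overlap between the pools, and those of the other 4 genes did.

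Among all 7 rows of the miR-290 cluster, Mir293 made up 49.4% of the cluster's counts in replicate 1 (interval 38.1 to 60.7) and 32.1% in replicate 2 (23.5 to 41.7). Mir294 made up 24.7% (15.8 to 35.5) and 38.5% (29.4 to 48.3), and Mir292 12.3% (6.08 to 21.5) and 23.9% (16.2 to 33.0). These 3 pairs of intervals overlapped. Overlap alone does not show whether the shares differed, and the shares were not tested. Mir291b, which shares 20 nt with Mir291a, held 8.64% (3.55 to 17.0) in replicate 1 and 0% in replicate 2, where 0 counts of 109 allow up to 2.75%.

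To see which genes differed between the libraries, the counts of each were put to an exact binomial test (two-sided), adjusted by the Benjamini-Hochberg method over the 436 genes whose summed count reached 10. This test holds 2 pools of 1 group against counting error alone and says nothing of conditions. It called 182 genes, or 41.7%, so a call is common in this table, and 20.4% of the tested genes were called higher in replicate 2. Of the 6 members tested, 2 were called, Mir292 and Mir294, both higher in replicate 2. Mir367 and Mir295 had too few counts to be tested.

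Mir294 had a log2 ratio of replicate 2 over replicate 1 of 1.38 (SE 0.39, counting error) and an adjusted p of 0.000925 in the exact binomial test. For Mir292 the log2 ratio was 1.66 (SE 0.53), with an adjusted p of 0.0034. By log2 ratio they were the 6th and the 3rd highest of the 436 tested genes. Of the 56 tested genes with a mean of 4 to 12 CPM, a range chosen after these values were seen, 5 were called, all higher in replicate 2, and Mir292 and Mir294 are among these 5. Below this range some genes were called higher in replicate 1, such as Mir879 (25 and 5 counts, mean 3.46 CPM). The common direction of the 5 thus depends on the range.

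The detected members of the miR-302 cluster moved little between the pools. Mir302a had a log2 ratio of -0.09 (SE 0.09), Mir302b of 0.23 (SE 0.10), Mir302c of -0.40 (SE 0.27) and Mir302d of -0.22 (SE 0.10). Their adjusted p in the exact binomial test was 0.496, 0.0656, 0.272 and 0.0655, respectively. Over the 286 detected genes the SD of the log2 ratio was 0.34, so all but Mir302c lay within 1 SD of 0. With trimmed-mean library sizes the adjusted p of Mir302d was 0.0407, and with DESeq2 size factors it was 0.0409, so its call depends on the scaling.

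A negative binomial exact test in edgeR, which adds the spread between the same 2 libraries, called 0 genes (0.0%) and 0 members. Of the 436 genes tested, 25 had an unadjusted p under 0.05, a threshold that some genes pass by chance alone. Mir294 (unadjusted p 0.00641) and Mir292 (0.00999) were among the 25, and both had an adjusted p of 0.34 in this edgeR test over all genes. The smallest adjusted p in the table was 0.0876.

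**Figure D3:**
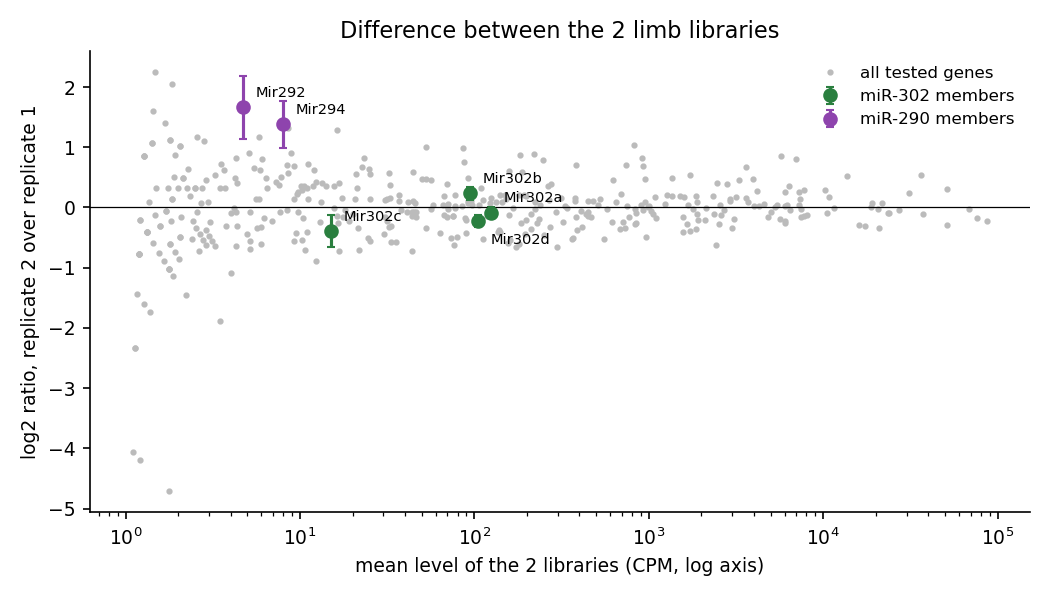
Log2 ratio of replicate 2 over replicate 1 against the mean level in CPM (log axis) for the 436 tested genes (grey), with members of the miR-302 cluster in green and of the miR-290 cluster in purple and counting standard errors as bars. Mir292 and Mir294 lie above 1 on the log2 axis, and the 4 Mir302 genes lie between -0.40 and 0.23.

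Grouped by seed, the members supplied almost none of the reads of 1 family. In another they supplied nearly all, but its genes with a row all belong to these 2 clusters. Genes whose arm carries AAGUGCU were 5 with a row, Mir302b, Mir302d, Mir294, Mir295 and Mir291a, by the arms in the RefSeq table, and they summed to 205 CPM in replicate 1 and 212 CPM in replicate 2. With Mir302a, whose 3' arm is named only but whose hairpin holds AAGUGCU, the 6 genes summed to 333 and 332 CPM. Members made up 99.7% and 99.3% of the sum of the 5, mostly through Mir302b and Mir302d. The remaining gene, Mir291a, is an unlisted row of the miR-290 cluster, so no gene outside the 2 clusters entered this share. For Mir294 the part was 4.42 and 11.7 CPM. As counts cover both arms of a hairpin, these sums are of genes and not of 3' arms alone.

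Genes with the seed of Mir367, AUUGCAC, were 7 with a row and summed to 7743 CPM in replicate 1 and 9772 CPM in replicate 2. Mir367 gave 0.442 CPM of this in replicate 1 and 0 in replicate 2. The seed was carried in the limb by genes outside the pluripotency clusters, led by Mir92-1 of the miR-17-92 cluster (5555 and 7084 CPM, sharing a stretch of 20 nt or more with another gene). Next in mean level were Mir25 (906 and 752 CPM) and Mir92b (537 and 1104 CPM), with Mir92b the higher of these in replicate 2. The arms of Mir367, Mir92-1 and Mir25 show the common start and the different remainder.

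miR-367-3p: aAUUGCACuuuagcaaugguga
miR-92a-3p: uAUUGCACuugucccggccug
miR-25-3p: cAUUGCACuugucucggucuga

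The 6 bases AAGUGC, shared by the seeds of both clusters, also occur 1 base further along in the arms of the miR-17 family, which is known for its levels in dividing cells.

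miR-294-3p: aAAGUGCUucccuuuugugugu
miR-17-5p: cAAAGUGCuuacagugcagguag
miR-20a-5p: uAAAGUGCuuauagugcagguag

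By the arms in the RefSeq table, which leaves the 3' arms of Mir302a and Mir292 uncounted, 19 genes with a row hold AAGUGC somewhere in an arm (2.07%), read on the arm's own strand only. It starts at base 1 in Mir302c, at base 2 in 8 genes, 4 of them members, and at base 3 in 8 genes, none of them a member. The genes with AAGUGC from base 2 summed to 569 and 443 CPM, and with Mir302a to 697 and 563 CPM. Of these sums Mir350, a gene outside both clusters, held 363 CPM in replicate 1 and 231 CPM in replicate 2. Genes with AAGUGC from base 3 summed to 105084 CPM in replicate 1 and 86631 CPM in replicate 2. They were led by Mir17 (56205 and 45686 CPM) and Mir20a (19240 and 15512 CPM). A match of letters is a description and does not show that the genes share targets.

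**Figure D4:**
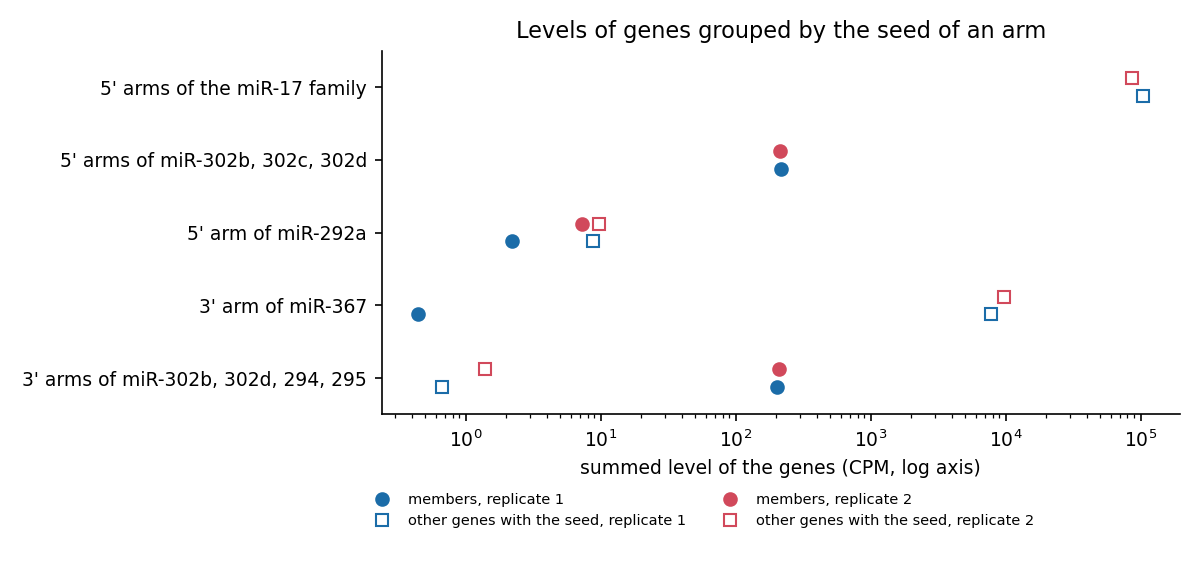
Summed level in CPM (log axis) of the genes that share the seed of the arm named at the left. Replicate 1 is blue, replicate 2 is red, and sums of 0 are not drawn. Filled circles are the listed members of the 2 pluripotency clusters, and open squares are all other genes. For the seed of miR-302b-3p and miR-294-3p the open squares are Mir291a, an unlisted row of the miR-290 cluster. For the seed of miR-292a-5p they are Mir293 and Mir290a, also unlisted rows of that cluster. Members lead the seed of miR-302b-3p and miR-294-3p, while other genes carry the seed of miR-367-3p at 7743 and 9772 CPM and the miR-17 family lies at 105084 and 86631 CPM.

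The 5' arms formed families of their own. The seed CUUUAAC of the Mir302b, Mir302c and Mir302d 5' arms occurred in no other gene, and the 3 genes summed to 217 and 212 CPM. CUCAAAC, the seed of the Mir292 5' arm, is also that of Mir293 and Mir290a, and these genes summed to 11.0 and 16.9 CPM. Hairpins of the 8 members had a GC content of 39.2% (Mir302b) to 50.0% (Mir292), against a median of 51.0% over all rows with a sequence and 50.0% over detected rows.

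Genes nearest in level to the leading member of each cluster, by the distance of log2(CPM + 1) over the 2 libraries, came from other regions. For Mir302a they were Mir673 (122 and 116 CPM), Mir377 (123 and 112 CPM) and Mir19a (119 and 126 CPM). For Mir294 they were Mir5126 (4.86 and 12.2 CPM), Mir1188 (6.19 and 11.7 CPM) and Mir3060 (6.41 and 10.5 CPM). Over 2 libraries this measures level alone.

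MicroRNA markers of other cells that a limb pool could hold are given beside these levels. In the X-linked testis cluster, taken for the germ line, 0 of 18 genes were detected, 12 had 0 counts in both libraries, and the sum was 3.76 CPM in replicate 1 and 1.66 in replicate 2, led by Mir741 (1.36 ± 0.04 CPM) and Mir881 (0.691 ± 0.585 CPM). The families of the Sfmbt2 intron (Mir297, Mir466, Mir467, Mir669), taken for extra-embryonic tissue, had 7 of 69 genes detected and summed to 3461 and 3130 CPM, led by Mir467d (1030 ± 26 CPM) and Mir467e (842 ± 38 CPM), but 67 of the 69 share a stretch with another gene. The germ-line sum rests on few counts. Whether either tissue had a part in the higher levels of Mir292 and Mir294 in replicate 2 was not tested.

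The lists of blood markers did not move as one between the pools. The red blood cell list (3 of 3 detected) summed to 257 CPM in replicate 1 and 180 CPM in replicate 2. Mir451a (212 and 135 CPM) and Mir144 (27.2 and 16.6 CPM) were lower in replicate 2, and Mir486 (17.5 and 27.7 CPM) was higher. The white blood cell list (2 of 3 detected) summed to 581 and 655 CPM, led by Mir155 (338 ± 1.1 CPM) and Mir223 (275 ± 52 CPM). The neural list (1 of 6 detected) summed to 145 and 159 CPM, almost all from Mir137 (151 ± 9.9 CPM), with Mir9-3 at 1.11 ± 0.0035 CPM and the 4 other measured genes at 0, though 5 of the 6 share a stretch. The part of any of these cells in the levels of the 2 clusters was not tested.

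The let-7 family rises as cells differentiate and is set against the pluripotency clusters in stem cells. Of its genes, the 10 listed for this comparison were all detected, and 5 of them share a stretch with another gene. These 10 genes summed to 45429 CPM in replicate 1 and 48692 CPM in replicate 2, led by Mirlet7g (21638 ± 861 CPM) and Mirlet7i (18881 ± 138 CPM). All 8 members of the pluripotency clusters together reached 352 CPM in replicate 1 and 351 CPM in replicate 2, so their sum was almost equal in the 2 pools while that of the listed miR-290 genes was not.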

How the data were processed

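Small RNA libraries of limb from 2 embryo pools were used, 1 library per replicate, grouped by the labels. The authors deposited raw read counts per microRNA gene. Reads were placed on mm10 and counted over GENCODE release M4, per the file headers deposited beside the tables. The aligner and the counting program were not given in the sources used here. Replicate 1 held 10646293 reads and replicate 2 held 9738708, of which 42.5% and 37.0% fell on genes. Reads mapping to several places (27.2% and 23.7%) and the other rows without a gene did not enter the totals. Of 1973 rows, 1894 matched GENCODE M21 and 927 matched RefSeq microRNA sequences by symbol. Own-strand counts were scaled to CPM. Ratios and shares carry exact (Clopper-Pearson) intervals and levels in the plot by gene exact Poisson ones. Log2 ratios had 0.5 counts added.

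The 2 libraries were compared with an exact binomial test (scipy 1.17.1) with Benjamini-Hochberg adjustment over all genes with 10 counts or more and a threshold of 0.05, and with edgeR 4.0.16 in R 4.3.3 using the common dispersion of an intercept-only design. DESeq2 1.42.0 gave size factors only. Both tests were run on simulated data, the binomial test with counting error alone and the edgeR test with large changes in a few genes of high count. The changed genes in both runs had higher counts than Mir292 and Mir294. Nothing in the labels gives a batch, and p-values measure only the spread or counting error of these libraries. The members and gene lists were chosen with earlier results of these data known. Named genes were the 8 members, other rows within 10 kb, the 2 highest genes of each list and seed family, and the 3 genes nearest in level to each leading member. Mir92b, Mir144, Mir350 and Mir879 were named as well. The leading member of the miR-290 cluster was taken among the listed ones. Alternatives were strand, length, library total, scaling, shared stretches of 20 or 18 nt, count filter, detection threshold, seed length and leaving out a library; using all 7 miR-290 rows and adding Mir302a to a seed sum by its hairpin were added after seeing the data.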

Additional observations from a re-analysis of the deposited data

How the results depend on the processing

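The miR-302 sum, 338 CPM, became 488 per 100 nt of hairpin, 135 with all reads as the library total, 120 without Mir302a and Mir302b, which share 20 nt (and the same with 18 nt), and 67.7 as a mean per member. The listed miR-290 sum, 13.0 CPM, became 24.1 with all 7 rows, an alternative chosen after seeing the data. The ratio of mean sums, 26.0, ranged from 17.3 without replicate 1 to 50.4 without replicate 2, and was 9.25 without Mir302a and Mir302b, 15.6 as a mean per member and 14.1 with all 7 miR-290 rows. The 4 detected members fell to 1 at 100 CPM. The edgeR test called 0 members against 2 and 0 genes against 182. It allows for a spread estimated from the same 2 libraries, while the exact binomial test allows for counting error alone. Genes with seed AAGUGCU, 208 CPM, gave 203 with both strands counted and 506 with bases 2 to 7, which adds Mir350, and 332 with Mir302a added by its hairpin, also chosen after seeing the data; CUUUAAC, 214 CPM, gave 209 with both strands. The seeds of the Mir294, Mir292 and Mir295 5' arms, at 8.04, 14.0 and 0.249 CPM, all gave 22.3 with bases 2 to 7, since they then form 1 group. Under a filter of 100 counts Mir292 and Mir294 were not tested and Mir302b and Mir302d were called (adjusted p 0.0458 each, exact binomial test). Of the alternatives to these sums and counts, 69 stayed within the spread between replicates or 1.5 times of the count, and 17 did not. The 69 include the ratios of 17.3, 9.25, 15.6 and 14.1, because the SD of the ratio was 23.3 (n = 2). Depth limits Mir295 and Mir367 most, at 1 and 2 counts or fewer per library. No paired analysis was possible because the series has 1 group.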
